A study of Mus musculus with 8 samples.

Results

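Scavenger receptors are cell-surface or lysosomal membrane proteins that bind modified lipoproteins, microbial surfaces, dying cells or carrier-bound haemoglobin and take them into the cell, and 8 of their genes are described here in cultured mouse macrophages: Msr1, Marco, Cd36, Scarb1, Scarb2, Mrc1, Cd163 and Olr1. They were chosen by symbol from a written list, drawn up with earlier results of these data known, and all 8 of the 8 listed symbols were present among the 11541 genes of the deposited table. The cells were bone marrow-derived macrophages (BMMs), grown from non-adherent mouse marrow cells for 4 days with macrophage colony-stimulating factor (M-CSF) at 25 ng/mL. There were 4 libraries whose genotype label is Ogfrl1 knockout (KO) and 4 labelled wild type (WT), and every library had the same M-CSF treatment. The labels give no strain, age, sex or allele design, and do not state whether libraries share an animal. The p-values therefore reflect how these libraries vary, part of which can be technical.

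Members of the family differ in structure and cargo. Msr1 and Marco are collagen-like trimers (class A) that bind acetylated and oxidised lipoproteins, bacteria and particles. Cd36, Scarb1 and Scarb2 share a fold with a hydrophobic tunnel (class B) and carry fatty acids, cholesterol esters or lysosomal cargo. Mrc1 and Olr1 hold C-type lectin domains, and Cd163 takes up complexes of haptoglobin and haemoglobin. In macrophages these receptors feed lipid, haem and debris to the lysosome, and several of them are used as markers of macrophage state.

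Upstream sequence is shown for Marco, the member with the highest log2 fold change of KO over WT, and for Mrc1 and Cd36, abundant members whose values were high in the same libraries. RefSeq promoters (GRCm38.p6, the assembly that mm10 also names) were matched for 6 of the 8 members. Shown are the bases upstream of the RefSeq start, up to 250 and outside the exons listed in the deposited table, 5′ to 3′ on the gene's strand. Capitals mark GAGGAA on either strand (TTCCTC on the other), a purine-rich core found in many sites of the myeloid factor PU.1.
Marco (chr1:120505085-120505274, minus strand): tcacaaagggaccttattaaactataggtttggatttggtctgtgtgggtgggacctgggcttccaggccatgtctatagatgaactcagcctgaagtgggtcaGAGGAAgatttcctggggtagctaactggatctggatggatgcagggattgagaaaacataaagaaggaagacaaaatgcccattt
Mrc1 (chr2:14229164-14229413, plus strand): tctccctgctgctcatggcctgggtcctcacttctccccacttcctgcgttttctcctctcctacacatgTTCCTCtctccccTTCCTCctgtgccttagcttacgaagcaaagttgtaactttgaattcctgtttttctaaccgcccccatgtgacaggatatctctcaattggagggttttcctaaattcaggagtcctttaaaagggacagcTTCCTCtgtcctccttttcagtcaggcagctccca
Cd36 (chr5:17835897-17836146, minus strand): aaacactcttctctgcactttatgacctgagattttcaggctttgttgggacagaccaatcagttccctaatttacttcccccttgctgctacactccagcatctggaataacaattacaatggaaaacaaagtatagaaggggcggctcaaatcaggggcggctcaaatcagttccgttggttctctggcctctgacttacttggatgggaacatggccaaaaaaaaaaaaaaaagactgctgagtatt

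The Mrc1 stretch held GAGGAA 3 times, with first bases 180, 167 and 35 bases upstream of the start, and the Marco stretch once, 146 bases upstream. In the Cd36 stretch these letters did not occur. GGGCGG, the GC box, occurred 2 times in the Cd36 stretch, 1 time in the Mrc1 stretch (as CCGCCC) and 0 times in the Marco stretch. Of the matched promoters not shown, Scarb2 held GGGCGG 1 time, Olr1 held GAGGAA 1 time and Cd163 held neither. Among 32851 RefSeq promoters, 23.3% held GAGGAA and 32.7% held GGGCGG on either strand of the 250 upstream bases, so both are common. The Cd36 stretch lies inside the gene as the table lists it, which reaches 17888959 through further 5′ exons, and the counts do not show which start was used. A match of letters is a description and no evidence of binding.

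BMM libraries carried the transcripts of macrophages. All 11 listed macrophage markers were in the table, with summed CPM (counts scaled to library size, TMM factors) of 21424 to 23488 in the KO-labelled and 18382 to 22519 in the WT libraries. No adipocyte, erythroid or B cell marker (0 of 5 in each list) was among the rows. Total counts were 47779990 to 53567289 in the KO-labelled and 39601341 to 61556269 in the WT libraries. WT replicates 1 and 2 stood apart from the other 6 libraries on the first principal component of log2 CPM (42.9 and 37.1 against -24.6 to 7.26). They also had the lowest ribosomal RNA reads (1.79 and 1.83% against 2.71 to 9.1%) and the highest mitochondrial reads (6.07 and 7.03% against 1.49 to 3.17%). The Ogfrl1 transcript, counted over the whole gene, was present in all libraries, at 146 to 197 CPM in the KO-labelled and 135 to 284 CPM in the WT libraries. The groups overlapped (log2 fold change -0.39, edgeR adjusted p = 0.404), so Ogfrl1 counts do not check the genotype labels, and which exons the allele affects is not stated in the labels.

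Levels per length differed widely within the family. Msr1 was the most abundant member, at 380 ± 30.8 CPM per kilobase of gene length in the KO-labelled and 452 ± 87.4 in the WT libraries (SD, n = 4), rank 110 of 11541 genes by the mean over libraries. Mrc1 followed at 243 ± 17.8 in KO-labelled and 283 ± 35.2 CPM per kilobase in WT libraries, and Cd36 at 203 ± 12.3 in KO-labelled and 227 ± 37.5 in WT libraries. Together these 3 genes made up 88.4 to 93.6% of the summed level per length of the 8 genes in every library. Scarb2 (41.0 ± 2.32 in KO-labelled and 39.0 ± 4.75 CPM per kilobase in WT libraries), Scarb1 (31.1 ± 3.76 in KO-labelled and 26.02 ± 6.09 in WT libraries) and Marco (23.2 ± 2.73 in KO-labelled and 17.3 ± 3.67 in WT libraries) formed a middle tier. Cd163 was lower, at 3.10 ± 0.148 in KO-labelled and 3.32 ± 0.297 CPM per kilobase in WT libraries, and Olr1 lowest, at 0.407 ± 0.0931 in KO-labelled and 0.48 ± 0.126 in WT libraries, rank 10817. Neighbours in this order had ranges over the libraries that overlapped in 2 places, Mrc1 with Cd36 and Scarb1 with Marco. Within each of the 8 libraries Mrc1 was above Cd36 and Scarb1 above Marco, the last by as little as 1.65 against 1.62% of the summed level in WT replicate 1. The authors' deposited log2 FPKM values of the members differed from log2 CPM per kilobase by at most 0.0524.

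**Figure D1:**
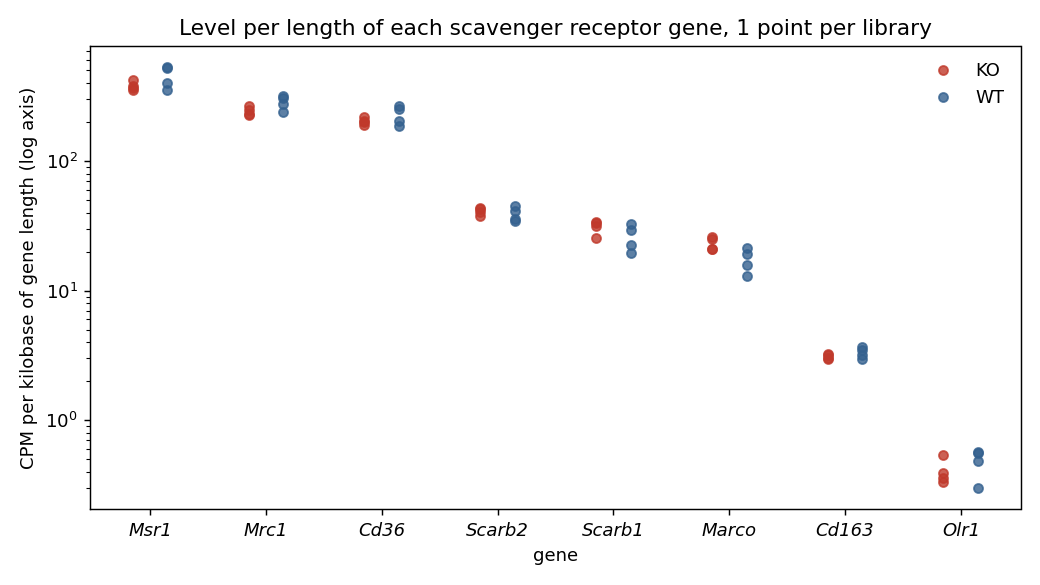
Level of each gene in CPM per kilobase of gene length on a log axis, 1 point per library, KO in red left of WT in blue. Msr1, Mrc1 and Cd36 sit between 187 and 531, Scarb2, Scarb1 and Marco between 13.002 and 44.6, and Cd163 and Olr1 below 3.66.

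No member passed the test between the genotypes. edgeR called 0 of the 8 at an adjusted p under 0.05, as it called 0.0% of the 11541 genes. Marco, the 1 member with an unadjusted p under 0.05, was higher in the KO-labelled libraries. Of all genes 6.52% reached that p, 2.01% with KO higher and 4.51% with KO lower. DESeq2 called 0 members and limma-voom 0, and in both only Marco had an unadjusted p under 0.05 among the 8. limma-voom with a quality weight for each library called 5 of the 8 (Marco, Scarb1, Msr1, Mrc1 and Cd36), in a fit that called 53.4% of all genes. In 3 members the log2 fold change of KO over WT was positive and in 5 negative (median -0.13, against -0.0047 over all genes), and KO and WT values overlapped in all 8, where 2.64% of all genes had groups without overlap (1.22% with KO higher and 1.42% with KO lower). For 8 of 8 members the 95% confidence interval (CI) stayed inside a doubling or halving, as for 90.5% of all genes. Whether a difference in these bulk libraries would come from fewer cells of a type or less RNA per cell cannot be told apart.

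**Figure D2:**
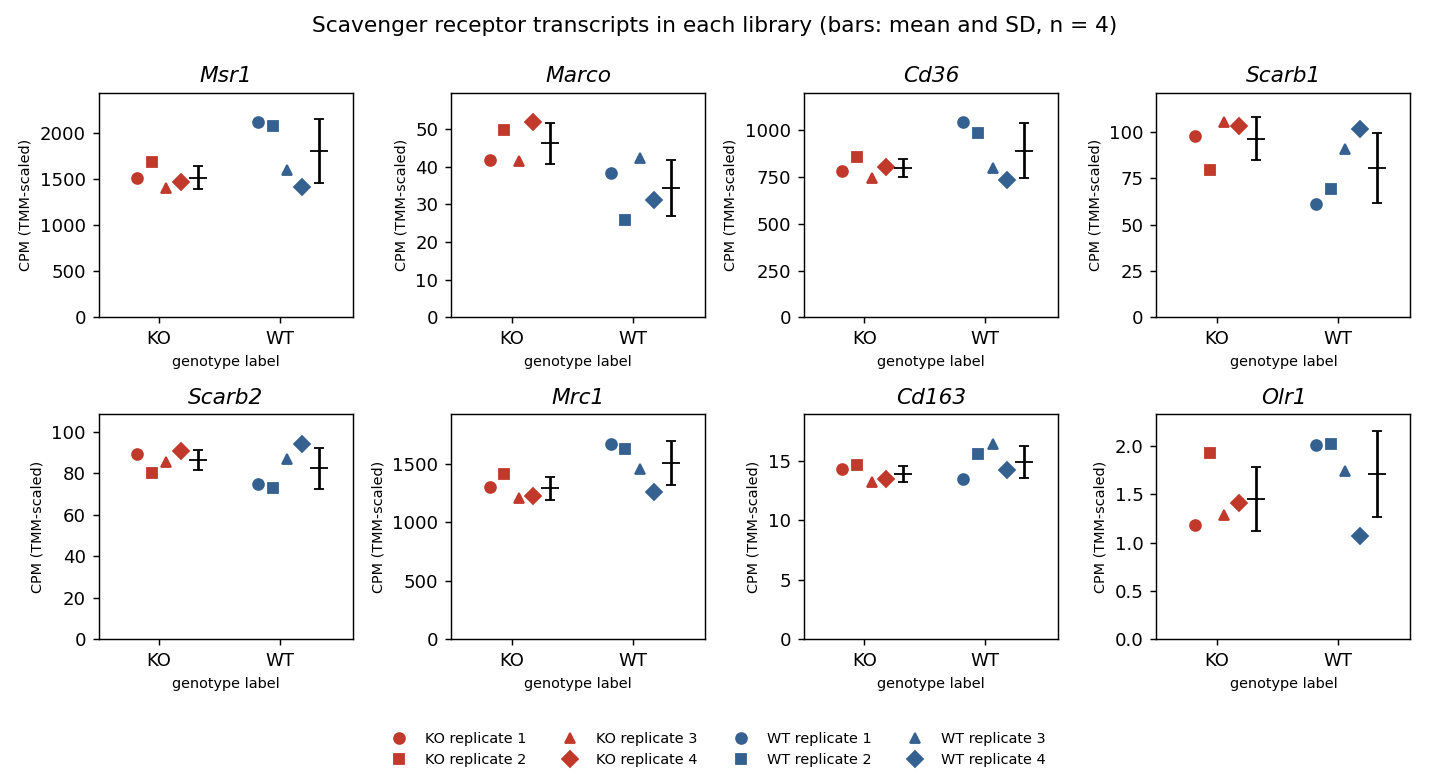
CPM of each gene in each library, KO left of WT, with 1 marker shape per replicate number (the numbers do not pair libraries) and the mean and SD of each group (n = 4) as black bars. Every panel starts at 0, and the KO and WT points overlap in all 8 panels.

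Among the class A receptors, Msr1, which binds modified low-density lipoprotein and bacterial lipid A, maps to chromosome 8 (39581700 to 39642678 in mm10, minus strand, 11 exon blocks). Its CPM were 1519, 1691, 1403 and 1467 in KO replicates 1 to 4, against 2123, 2078, 1600.3 and 1419.9 in WT replicates 1 to 4. WT replicates 1 and 2 were the highest, and the other WT libraries lay within the range of the KO-labelled libraries. Means were 1520.0 ± 123 CPM in the KO-labelled and 1805 ± 349 CPM in the WT libraries (SD, n = 4). The log2 fold change was -0.25 (SE 0.14, 95% CI -0.56 to 0.07, edgeR adjusted p = 0.404). Without WT replicates 1 and 2 it was 0.0095 (95% CI -0.21 to 0.23), and -0.045 (95% CI -0.21 to 0.12) when KO replicate 2 was left out as well, so neither value was distinguishable from 0.

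Marco, the collagenous macrophage receptor for unopsonised bacteria and particles, maps to chromosome 1 (120474538 to 120505084, minus strand, 17 exon blocks). KO replicates 1 to 4 had 41.6, 49.8, 41.4 and 51.8 CPM, against 38.2, 25.8, 42.1 and 31.1 CPM in WT replicates 1 to 4. Only WT replicate 3 reached into the KO range, just above KO replicates 1 and 3. Means were 46.1 ± 5.42 CPM in the KO-labelled and 34.3 ± 7.29 CPM in the WT libraries, a log2 fold change of 0.43 (SE 0.16, 95% CI 0.07 to 0.78, unadjusted p = 0.0242, edgeR adjusted p = 0.404). Marco kept a positive value without WT replicates 1 and 2 (0.33, 95% CI -0.01 to 0.68) and after a correction for GC content (0.24, 95% CI -0.16 to 0.64). With the ribosomal RNA percentage as a covariate it was 0.46 (95% CI 0.13 to 0.79, edgeR adjusted p = 0.568). In the fits without 1 library it ranged from 0.31 to 0.54. The 95% CI reached below 0 without KO replicate 2 (-0.017), KO replicate 4 (-0.034) or WT replicate 4 (-0.0043), and none of these fits called Marco.

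Relative to Msr1, Marco did not overlap between the groups. Msr1 over Marco, per length, was 18.1, 16.9, 16.8 and 14.1 in KO replicates 1 to 4, against 27.6, 39.98, 18.9 and 22.7 in WT replicates 1 to 4. Ratios of Marco to Cd36, Mrc1 and Cd163 also did not overlap, all higher in the KO-labelled libraries, and the other 24 of the 28 ratios between members overlapped. This was noticed after the values were seen and was not tested. The share of all genes whose ratio was likewise higher in every KO-labelled library was 1.36% with Msr1 below the line, 0.52% with Cd36, 4.22% with Mrc1 and 2.65% with Cd163. Marco took 2.27 to 2.87% of the summed level per length of the family in the KO-labelled libraries and 1.13 to 2.18% in WT.

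Of the class B receptors, Cd36, which takes up long-chain fatty acids and oxidised lipoprotein, maps to chromosome 5 (17781690 to 17888959, minus strand, 17 exon blocks). KO replicates 1 to 4 had 783, 859, 743 and 805 CPM, against 1044, 988, 799 and 736 CPM in WT replicates 1 to 4. As for Msr1, WT replicates 1 and 2 were above every other library. Means were 798 ± 48.5 CPM in the KO-labelled and 892 ± 147 CPM in the WT libraries, a log2 fold change of -0.16 (SE 0.12, 95% CI -0.43 to 0.11, edgeR adjusted p = 0.419). It was 0.056 without WT replicates 1 and 2 and 0.13 after the GC correction (95% CI 0.01 to 0.26, edgeR adjusted p = 0.549), so its sign was not stable.

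Scarb1, the receptor that moves cholesterol esters out of high-density lipoprotein, lies on chromosome 5 (125277087 to 125341094, minus strand, 13 exon blocks). Its CPM were 97.7, 79.5, 105 and 103 in KO replicates 1 to 4, against 60.9, 69.3, 90.8 and 102 in WT replicates 1 to 4. WT replicates 1 and 2 were here the lowest, the reverse of Msr1 and Cd36. Means were 96.4 ± 11.7 CPM in the KO-labelled and 80.7 ± 18.9 CPM in the WT libraries, a log2 fold change of 0.26 (SE 0.17, 95% CI -0.13 to 0.64, edgeR adjusted p = 0.404). Without WT replicates 1 and 2 it was 0.0014 (95% CI -0.28 to 0.28).

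Scarb2, the lysosomal membrane protein that brings glucocerebrosidase to the lysosome, lies on chromosome 5 (92443873 to 92505608, minus strand, 12 exon blocks). It had 89.4, 79.9, 85.5 and 90.8 CPM in KO replicates 1 to 4, against 75.0, 73.1, 87.03 and 94.1 CPM in WT replicates 1 to 4. The WT libraries enclosed all KO-labelled values. Means were 86.4 ± 4.89 CPM in the KO-labelled and 82.3 ± 10.02 CPM in the WT libraries, a log2 fold change of 0.07 (SE 0.10, 95% CI -0.15 to 0.29, edgeR adjusted p = 0.628). This interval holds changes from 0.903-fold to 1.22-fold, and the value was -0.068 without WT replicates 1 and 2.

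Among the lectin-type receptors, Mrc1, the mannose receptor that clears glycoproteins with exposed mannose and is widely used as a marker of alternative activation, lies on the plus strand of chromosome 2 (14229414 to 14332023) with 30 exon blocks. Its CPM were 1307, 1418, 1212 and 1225 in KO replicates 1 to 4, against 1673, 1631, 1457 and 1263 in WT replicates 1 to 4. Of the WT libraries, 3 exceeded every KO-labelled library and replicate 4 lay within the KO range. Means were 1291 ± 94.8 CPM in the KO-labelled and 1506 ± 187 CPM in the WT libraries, a log2 fold change of -0.22 (SE 0.10, 95% CI -0.46 to 0.01, edgeR adjusted p = 0.404). It was -0.076 without WT replicates 1 and 2 and -0.048 after the GC correction.

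Olr1, the lectin-like receptor for oxidised low-density lipoprotein best known from endothelium, lies on chromosome 6 (129485247 to 129507165, minus strand, 8 exon blocks) and was near the lower end of the table, with 57 to 105 reads per library. It had 1.18, 1.93, 1.29 and 1.408 CPM in KO replicates 1 to 4, against 2.01, 2.02, 1.74 and 1.07 CPM in WT replicates 1 to 4. Both the lowest and the highest value belonged to WT libraries. Means were 1.45 ± 0.33 CPM in the KO-labelled and 1.71 ± 0.45 CPM in the WT libraries, a log2 fold change of -0.23 (SE 0.25, 95% CI -0.79 to 0.34, edgeR adjusted p = 0.548), the widest interval of the family.

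Cd163, the receptor for haptoglobin and haemoglobin complexes, lies on the plus strand of chromosome 6 (124304651 to 124330527) with 17 exon blocks. KO replicates 1 to 4 had 14.3, 14.6, 13.2 and 13.5 CPM, against 13.5, 15.6, 16.4 and 14.2 CPM in WT replicates 1 to 4. WT replicates 1 and 2 did not stand apart for this gene. Means were 13.9 ± 0.67 CPM in the KO-labelled and 14.9 ± 1.34 CPM in the WT libraries, a log2 fold change of -0.10 (SE 0.09, 95% CI -0.31 to 0.10, edgeR adjusted p = 0.472). Its value was negative in all 20 other settings, from -0.16 to -0.05, and the 95% CI included 0 in each. These settings reuse the same libraries and are not independent checks, and the setting without a filter repeats the main fit.

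**Figure D3:**
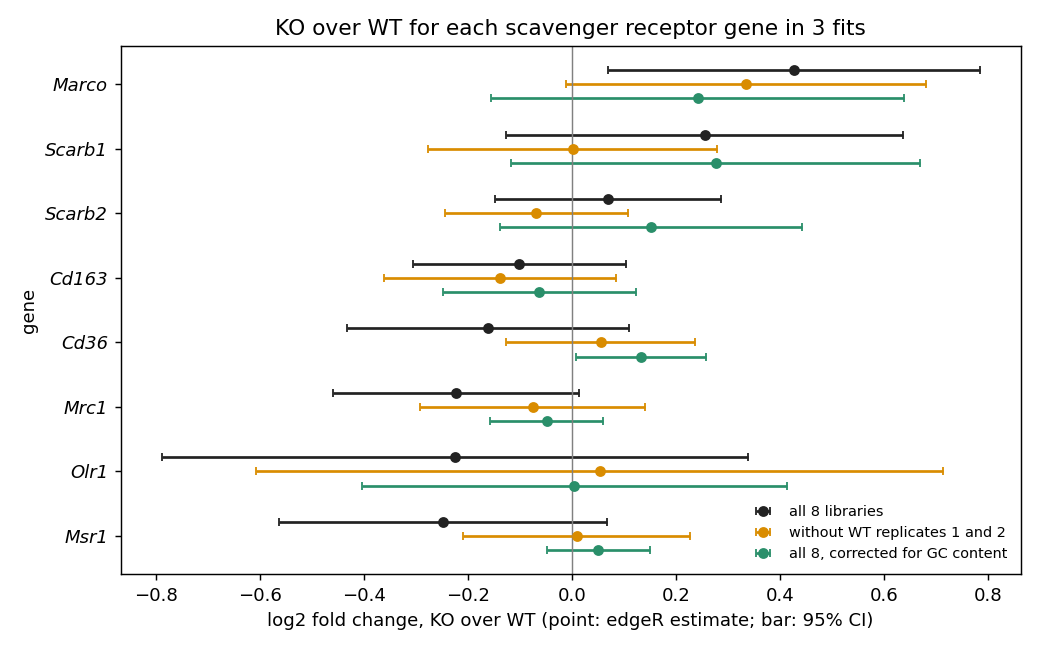
Log2 fold change of KO over WT with its 95% CI for each gene, from all 8 libraries (black), without WT replicates 1 and 2 (orange) and after the GC correction (green). Marco is the only gene whose black interval lies wholly above 0, and its other 2 intervals reach below 0.

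Spread between libraries exceeded counting error for every member. Msr1 varied with a coefficient of variation of 8.11% among KO-labelled and 19.3% among WT libraries, while counting error at its depth is 0.348%. Scarb1 had 12.1% in the KO-labelled and 23.4% in the WT libraries with 1.48% from counting, and Marco 11.7% in the KO-labelled and 21.2% in the WT libraries with 2.21%. Counting error was largest for Olr1, at 11.3% beside 22.9% in the KO-labelled and 26.2% in the WT libraries. Relative to the spread it came closest for Cd163 in the KO-labelled libraries (3.70% beside 4.78%) and for Olr1 in the WT libraries. Cd163 varied by 8.95% in the WT libraries. In each of the 8 genes the WT libraries varied more than the KO-labelled libraries. So did Ogfrl1, outside the family, at 14.5% in the KO-labelled and 34.7% in the WT libraries. The first principal component of all genes held 70.8% of the variance. It ran from -22.7 to 7.26 in the KO-labelled and from -24.6 to 42.9 in the WT libraries. The share of all genes that varied more in the WT libraries was not counted. No member's exons overlapped an exon of another gene in the GENCODE annotation, on either strand.

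The members followed 3 patterns over the libraries. Msr1, Cd36, Mrc1 and Olr1 had their highest values in WT replicates 1 and 2 and, within the KO-labelled group, in replicate 2. For Msr1 the deviation from the gene's mean log2 CPM over the 8 libraries was 0.042 in KO replicate 2, and 0.37 and 0.34 in WT replicates 1 and 2. Scarb1 and Scarb2 ran the other way, with Scarb1 at -0.13 in KO replicate 2, and at -0.515 and -0.33 in WT replicates 1 and 2. Cd163 (at most 0.19 from its mean) and Marco followed neither. Marco deviated by 0.34 and 0.40 in KO replicates 2 and 4, and by -0.61 in WT replicate 2 but -0.042 in WT replicate 1.

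**Figure D4:**
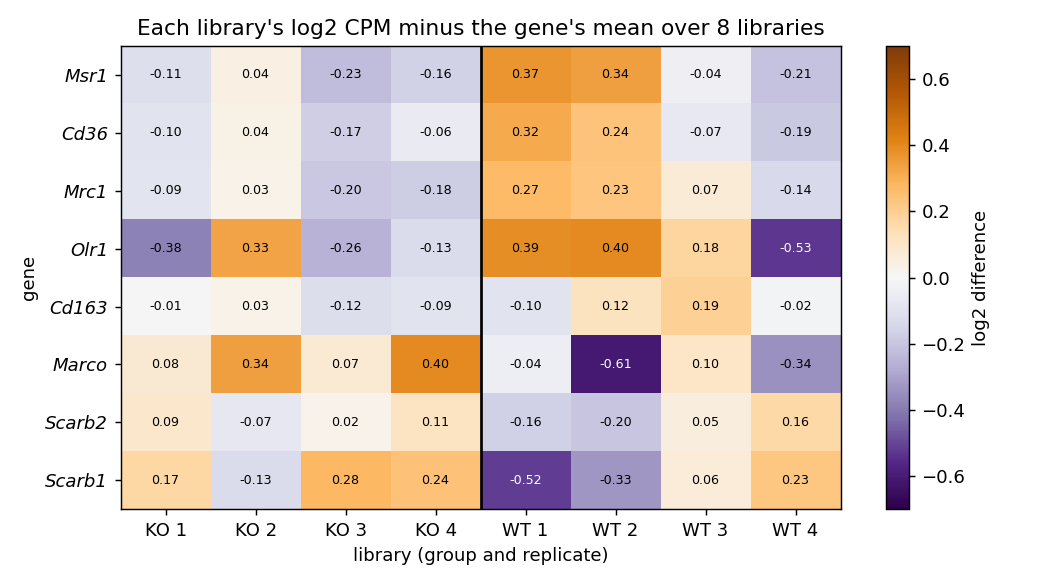
Log2 CPM of each gene in each library minus that gene's mean over the 8 libraries, KO-labelled libraries left of the black line and WT right of it. WT replicates 1 and 2 are above the mean for Msr1, Cd36, Mrc1 and Olr1 and below it for Scarb1 and Scarb2, while Marco is lowest in WT replicate 2 at -0.61.

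The genes whose log2 CPM ran most like each member, by Pearson r over the 8 libraries among 9892 genes (9893 for Olr1) at or above a mean log2 CPM of 1, are named next. Genes with predicted or clone-type names, Xist and Y-linked genes had been left out of the search. The named genes follow their member by the way they were picked and say nothing further of its pattern. Msr1 ran with Hmmr and Fmr1 (r = 0.999 each, 0.994 each over the 6 libraries without WT replicates 1 and 2) and Cd36 with Ubxn7 and Raet1e (0.997 and 0.995, and 0.997 and 0.969 over 6). Scarb1 ran with Trappc9 and Slc35c2 (0.999 and 0.998, and 0.9996 and 0.996 over 6), Scarb2 with Wdr74 and Ptpn11 (0.996 and 0.994, and 0.989 and 0.979 over 6). Mrc1 was most like Nuf2 and Acsl3 (0.995 each, and 0.985 and 0.989 over 6) and Olr1 like Cmas and Dcun1d3 (0.981 and 0.977, and 0.979 and 0.962 over 6). Marco was matched less closely, by Dtd1 and Kdr (0.956 and 0.948, and 0.938 and 0.899 over 6), as was Cd163, by Arhgef3 and Camsap1 (0.915 and 0.907, and 0.886 and 0.892 over 6). These are the highest of many values over few libraries and describe likeness in these libraries alone.

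GC content of the transcript ran beside these patterns. The members with the lowest GC content, Msr1 and Cd36 (38.4% each), Olr1 (41.2%) and Mrc1 (43.4%), all had negative log2 fold changes of KO over WT. Scarb2 (46.3%), Scarb1 (48.5%) and Marco (54.5%) had positive ones, and Cd163 (47.9%) a negative one. Over all genes, which are not independent, the log2 fold change followed GC content with a Spearman rank correlation of 0.72, of 0.09 without WT replicates 1 and 2, and of 0.42 when KO replicate 2 was left out as well. With the ribosomal RNA percentage as a covariate it was 0.60. After each library's deviations had been smoothed on GC content and removed, the values were 0.051 for Msr1, 0.13 for Cd36, 0.0049 for Olr1 and -0.048 for Mrc1. They were 0.15 for Scarb2, 0.28 for Scarb1, -0.063 for Cd163 and 0.24 for Marco, and 0 of 8 passed.

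**Figure D5:**
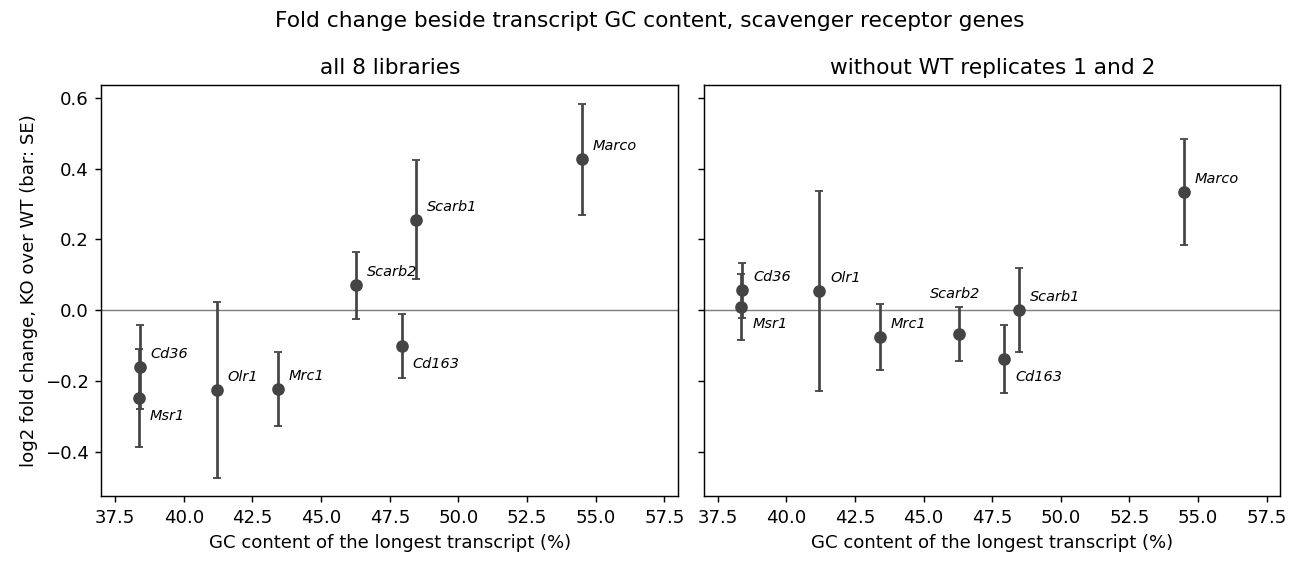
Log2 fold change of KO over WT (point, with SE as bar) beside the GC content of each gene's longest transcript, from all 8 libraries on the left and without WT replicates 1 and 2 on the right. On the left the values run from -0.25 for Msr1 at 38.4% GC to 0.43 for Marco at 54.5%, and on the right every gene but Marco lies between -0.14 and 0.06.

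Other scavenger receptors had 15 of 22 listed genes in the table. edgeR called 0, with 11 positive and 4 negative log2 fold changes of KO over WT (median 0.20), and 8 and 7 (median 0.0099) without WT replicates 1 and 2. Cxcl16, the membrane-bound chemokine that also binds oxidised lipoprotein, had 87.1 ± 2.49 CPM in the KO-labelled and 74.2 ± 2.63 CPM in the WT libraries, without overlap (log2 fold change 0.23, SE 0.06, edgeR adjusted p = 0.404). It was the 1 gene that DESeq2 called (adjusted p = 0.0456). Of the 15 genes, only Cxcl16 had groups without overlap, where 1.22% of all genes did with KO higher. The genes named from this and the following lists were picked for the smallest edgeR p, which favours groups that do not overlap. Ager, the receptor for advanced glycation end products, had 0.818 ± 0.211 in KO-labelled and 0.498 ± 0.137 CPM in WT libraries, a low level. Clec7a, the beta-glucan receptor dectin-1, had 17.98 ± 2.25 in KO-labelled and 22.2 ± 3.44 CPM in WT libraries. Lrp1, the large endocytic receptor that also clears haem bound to haemopexin, had 6108 ± 621 in KO-labelled and 5132 ± 913 CPM in WT libraries. Its log2 fold change was 0.25, and -0.029 after the GC correction. Ager had 0.69 and Clec7a -0.31. Without WT replicates 1 and 2 the values were 0.20 for Cxcl16, 0.43 for Ager, -0.11 for Clec7a and 0.046 for Lrp1.

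Of 20 co-receptors and partners 18 were in the table and 0 were called (9 positive, 9 negative, median -0.03). Tlr2, which works with Cd36 and Marco on bacterial lipopeptides and mycobacterial glycolipid, had 168, 168, 183 and 181 CPM in KO replicates 1 to 4, against 139, 141, 159 and 156 CPM in WT replicates 1 to 4. These groups did not overlap, but the gene did not pass (log2 fold change 0.23, edgeR adjusted p = 0.404). Of the 18 genes, only Tlr2 had groups without overlap, where 1.22% of all genes did with KO higher. Cd14, the lipopolysaccharide co-receptor, had 89.3 ± 7.17 in KO-labelled and 71.0 ± 16.3 CPM in WT libraries. Adam10, a protease that sheds membrane proteins, had 727 ± 53.2 in KO-labelled and 857 ± 129 CPM in WT libraries, and Vav3, a guanine nucleotide exchange factor, 119 ± 11.2 in KO-labelled and 139 ± 20.2 CPM in WT libraries. Without WT replicates 1 and 2 there were 7 positive and 11 negative values. In that fit the log2 fold change was 0.15 for Tlr2, 0.082 for Cd14, -0.038 for Adam10 and -0.033 for Vav3. With all libraries it was 0.33 for Cd14, -0.24 for Adam10 and -0.22 for Vav3.

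Lipid processing after uptake had all 19 genes in the table and 0 called (10 positive, 9 negative, median 0.02, and 6 and 13 without WT replicates 1 and 2). Lpl, lipoprotein lipase, had 287, 293, 283 and 288 CPM in KO replicates 1 to 4, against 384, 377, 308 and 295 CPM in WT replicates 1 to 4, without overlap (log2 fold change -0.24, edgeR adjusted p = 0.404, and -0.07 without WT replicates 1 and 2). Of the 19 genes, only Lpl had groups without overlap, where 1.42% of all genes did with KO lower. Pltp, the phospholipid transfer protein, had 6.48 ± 1.06 CPM in the KO-labelled and 4.92 ± 1.03 CPM in the WT libraries. Pnpla2, the triglyceride lipase of lipid droplets, had 40.4 ± 2.06 in KO-labelled and 35.0 ± 4.79 CPM in WT libraries, and Acsl4, an acyl-CoA synthetase for arachidonate, 183 ± 20.6 in KO-labelled and 225 ± 47.3 CPM in WT libraries. The log2 fold change of Pnpla2 was 0.21, and -0.051 after the GC correction, and that of Acsl4 was -0.30, and -0.0094 after it. For Pltp it was 0.39, and 0.19 without WT replicates 1 and 2.

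Haem and iron handling, which follows uptake through Cd163, had 11 of 11 genes in the table and 0 called (8 positive, 3 negative, median 0.14, and 8 and 3 with a median of 0.04 without WT replicates 1 and 2). Hmox1, the haem-degrading oxygenase, had 1236, 1296, 1329 and 1334 CPM in KO replicates 1 to 4, against 1003, 1103, 1183 and 1159.9 CPM in WT replicates 1 to 4, without overlap (log2 fold change 0.22, edgeR adjusted p = 0.404). Its log2 fold change was 0.15 without WT replicates 1 and 2 and 0.079 after the GC correction. Of the 11 genes, only Hmox1 had groups without overlap, where 1.22% of all genes did with KO higher. Slc11a1, the phagosomal divalent metal transporter, had 512 ± 60.8 in KO-labelled and 400.1 ± 98.1 CPM in WT libraries. Slc48a1, which moves haem out of the phagolysosome, had 340.3 ± 29.0 in KO-labelled and 277 ± 63.0 CPM in WT libraries. The log2 fold change of Slc11a1 was 0.36, and 0.086 without WT replicates 1 and 2. That of Slc48a1 was 0.30, and 0.044 without them.

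Transcription factors of scavenger receptor genes had 20 of 22 listed genes in the table and 0 called (13 positive, 7 negative, median 0.12). Without WT replicates 1 and 2 there were 17 and 3 (median 0.05), and after the GC correction 8 and 12. Spi1, encoding PU.1, had 210 ± 16.9 in KO-labelled and 178 ± 18.8 CPM in WT libraries, a log2 fold change of 0.24, and of -0.08 after the GC correction. Tfe3, a factor of lysosomal genes, had 138 ± 8.74 in KO-labelled and 118 ± 15.6 CPM in WT libraries. The AP-1 gene Junb had 78.6 ± 16.4 in KO-labelled and 51.4 ± 21.7 CPM in WT libraries, and Stat6, which carries the interleukin-4 signal, 269 ± 11.2 in KO-labelled and 239.5 ± 25.8 CPM in WT libraries. None of these 4 passed (edgeR adjusted p = 0.404 each). Log2 fold changes were 0.23 for Tfe3, 0.61 for Junb and 0.17 for Stat6. Without WT replicates 1 and 2 they were 0.077 for Tfe3, 0.17 for Junb and 0.040 for Stat6, and 0.13 for Spi1.

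Markers of other cell types were present at differing levels. Endothelial markers summed to 33.0 to 37.1 CPM in the KO-labelled and 27.9 to 35.1 CPM in the WT libraries (4 of 9 in the table, most of the sum from Kdr), with Tek, Emcn, Egfl7, Robo4 and Lyve1 not among the rows. Stromal markers summed to 17.8 to 73.4 CPM in KO-labelled and 9.07 to 102 CPM in WT libraries (5 of 8), dendritic cell markers to 5.87 to 8.85 CPM in KO-labelled and 5.02 to 8.95 CPM in WT libraries (3 of 8). Neutrophil markers (9 of 10) summed to 274 to 309 CPM in the KO-labelled and 317 to 352 CPM in the WT libraries. These sums did not overlap, and how often sums of other genes do so was not counted. Ngp, the largest part of the sum, had 115 ± 9.43 in KO-labelled and 130 ± 12.1 CPM in WT libraries, and overlapped singly. Of the 9 markers, 7 had negative and 2 positive log2 fold changes of KO over WT (Ltf 0.012 and Cxcr2 0.064). edgeR called 0, and 3 (S100a8, S100a9 and Lcn2) were lower with KO at an unadjusted p under 0.05, where 4.51% of all genes were. Singly, 1 marker (Lcn2) had groups without overlap, where 1.42% of all genes did with KO lower. Monocyte markers summed to 275 to 341 CPM in KO-labelled and 321 to 349 CPM in WT libraries (5 of 5), and platelet markers to 155 to 190 CPM in KO-labelled and 157 to 202 CPM in WT libraries (4 of 6). With the stromal markers as a covariate the log2 fold changes were 0.43 for Marco, -0.23 for Msr1 and -0.22 for Mrc1. The part of the other cell types in the members' values was not tested.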

How the data were processed

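Messenger RNA of 8 BMM libraries, 4 KO-labelled and 4 WT, was counted by the authors. The deposited count columns hold raw reads per gene. Reads were aligned with STAR against mm10 and counted by featureCounts, per the file headers. Tool versions, annotation release and strand setting: not given in the sources used here. Depth was 39601341 to 61556269 counts per library. The deposited log2 FPKM columns (the authors' values per length, per the file headers) served one check of levels. The authors also deposited their own comparison as log2 fold changes, p-values and false discovery rates, and no member's rate was under 0.05 in it. Ribosomal and mitochondrial percentages are the authors'.

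KO was compared with WT by edgeR 4.0.16 in R 4.3.3 (quasi-likelihood test, TMM factors, filter by group, which removed no gene). P-values were adjusted over all 11541 genes by Benjamini-Hochberg and called under 0.05. SE and 95% CI come from the F statistic. Replicates were numbered in accession order. Pairs of libraries differed by a chi-square per degree of freedom of 7.25 or more, so none was a copy. Log2 CPM used a prior count of 2. GC content is that of the longest GENCODE M21 transcript (99.4% of genes matched), smoothed by lowess with a span of 0.3. The script was tested on simulated data. Other settings were DESeq2 1.42.0, limma-voom (limma 3.58.1), other factors and filters, libraries left out, covariates and the GC correction.

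Named genes are the 8 members, Ogfrl1, up to 4 genes with the smallest p in each of 5 further lists, and the 2 genes most like each member. The members and lists were chosen with earlier results of these data known.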

Additional observations from a re-analysis of the deposited data

How the results depend on the processing

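The count of called genes was 0 in the edgeR fits, among them those leaving out 1 library each (range 0 to 0), and by limma-voom, 1 by DESeq2 and 6162 by limma-voom with quality weights. Genes with an unadjusted p under 0.05 numbered 752 by edgeR with all libraries and 134 to 5207 with 1 library left out, the most without WT replicate 4. In the fit with quality weights, which calls 53.4% of all genes, 5 members passed: Marco (log2 fold change 0.46), Scarb1 (0.49), Msr1 (-0.40), Mrc1 (-0.33) and Cd36 (-0.29). Its weights were 3.67, 0.491, 3.52 and 2.77 for KO replicates 1 to 4. For WT replicates 1 to 4 they were 0.774, 1.02, 0.392 and 0.185, so WT replicates 3 and 4 counted least. Marco, Mrc1, Scarb1 and Cd163 kept their sign in all 20 other settings, which reuse the same libraries and are not independent checks. The setting without a filter repeats the main fit, since the filter removed no gene. Scarb1 kept its sign only barely without WT replicates 1 and 2, at 0.0014. Others turned, and the cause was not tested. Without WT replicates 1 and 2, the values turned to 0.0095 for Msr1, 0.056 for Cd36, 0.053 for Olr1, -0.068 for Scarb2 and 0.12 for Ogfrl1. When KO replicate 2 was also left out, they were 0.018 for Cd36, -0.032 for Scarb2 and 0.010 for Ogfrl1, while Msr1 (-0.045) and Olr1 (-0.12) were again negative. With the ribosomal RNA covariate Scarb2 had -0.0086 and Olr1 0.040, and after the GC correction Msr1 had 0.051, Cd36 0.13 and Olr1 0.0049. Leaving out 1 library at a time gave -0.35 to -0.16 for Msr1, -0.24 to -0.076 for Cd36, 0.14 to 0.39 for Scarb1, 0.017 to 0.14 for Scarb2, -0.40 to -0.13 for Olr1 and -0.55 to -0.22 for Ogfrl1, with no change of sign in any member. No paired analysis was possible because the labels give no replicate number or pairing shared by KO and WT libraries. Counting error was largest for Olr1 (11.3%) and at most 3.7% for the other members.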
